A study of Mus musculus with 2 samples.

Results

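Rab GTPases and the proteins that switch them were followed in 46C mouse embryonic stem cells that overexpressed ID2 and in control cells of the same line. Members were taken by name from the authors' gene table: numbered Rab genes, numbered Tbc1d genes, lettered Dennd genes, Rab11 family interacting proteins, Rab3il1, Rab3ip, Rabgef1, the Rab3 GTPase-activating protein subunits and genes of GDP dissociation inhibitors. Of 14398 rows in the table, 104 had such a name, and 96 of these had a mean of both libraries of at least 50, the level floor used throughout. The whole table held 12679 genes above that floor. The 96 members included 44 Rab GTPases, 12 DENN proteins of the lettered Dennd series, 3 other exchange factors, 28 TBC proteins, 2 Rab3 GTPase-activating protein subunits and 5 Rab11 family interacting proteins.

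The ID2-overexpression culture was transfected with the construct labelled PB-ID2, and the control culture with the empty vector labelled PB. Both were 46C cells, in which GFP marks activity of Sox1, a neural gene. They were at passages 21 to 24 and were kept on gelatin in medium that held serum and leukemia inhibitory factor, the cytokine that sustains self-renewal. ID2 is a helix-loop-helix protein that cannot bind DNA itself and keeps partner proteins, the E proteins among them, off their DNA sites. With 1 RNA sequencing library per group, no spread between cultures was measured, so values are compared by size only and without a test. In such bulk RNA, fewer cells of a type and less RNA per cell cannot be told apart. Id2 stood at 26225 in the ID2-overexpression library and at 324 in the control library, the direction that the labels give. Values are the authors' normalized values, whose sequencing depth is unknown. Before a constant factor per library the sorted values of both libraries were identical, so a difference between the libraries in overall level or spread cannot be seen, and ratios are relative to this shared distribution. Ratios are ID2-overexpression over control on the scale of log2(value + 1), which understates the ratio of low genes, while folds are quotients of the deposited values.

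The stem cell label was checked on its markers. All 8 listed markers of embryonic stem cells, Pou5f1, Sox2 and Nanog among them, had a row, and their values summed to 151958 in the ID2-overexpression library and 125669 in the control library. Of 10 fibroblast and feeder markers 5 had a row, and these summed to 1429 in the ID2-overexpression library and 2198 in the control library. Of the 4 above the floor 3 were lower and 1, Pdgfra, higher, with a median log2 ratio of −0.53. Among them Col1a1 stood at 139 in the ID2-overexpression library and at 339 in the control library. Col1a2, under the floor, stood at 7.03 in the ID2-overexpression library and at 39.8 in the control library. For extraembryonic endoderm 5 of 6 markers had a row, with sums of 6429 in the ID2-overexpression library and 5810 in the control library, most of it from Lama1 (6130 in the ID2-overexpression library and 5561 in the control library). Within that list Sox7 stood at 127 in the ID2-overexpression library and at 16.9 in the control library, while Gata4 stood at 76.4 in the ID2-overexpression library and at 146 in the control library. For neural cells 5 of 6 markers had a row, with sums of 2642 in the ID2-overexpression library and 2155 in the control library. Of these 5, Sox1 (782 in the ID2-overexpression library and 386 in the control library) and Tubb3 were higher and Nes, Map2 and Neurod1 lower, with a median log2 ratio of −0.52. The other marker names were not analysed here. The part of these differences in the results below was not tested.

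Rab proteins are small GTPases that mark the membranes of the secretory and endocytic pathways. An exchange factor, many of which carry a DENN domain, loads a Rab with GTP on its membrane, where it recruits motors, tethers and other effectors. A GTPase-activating protein, usually with a TBC domain, ends the active state, and a GDP dissociation inhibitor takes the GDP-bound Rab off the membrane and keeps it soluble. Cells of every kind use this machinery for general traffic, while some Rabs, such as those of the Rab3 group, are best known from neurons and glands that store cargo for regulated release.

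Most of the machinery stood at close to the same level in both libraries. Of the 96 members, 44 were higher and 52 lower in the ID2-overexpression library by any amount, beside 47.2% higher and 51.5% lower of all genes above the floor. The members' median log2 ratio was −0.008, and that of all genes above the floor was −0.0023. A total of 72 members were less than 1.25-fold apart, beside 65.2% of all genes, and 91 (94.8%) were less than 1.5-fold apart, beside 85.3%. Rab17 was the 1 member at least 2-fold higher, where 2.59% of all genes were, and Rab3il1 the 1 member at least 2-fold lower, where 1.97% of all genes were. Rab17 passed the floor only through the ID2-overexpression library, so its count among the higher genes rests on the floor. At the 1.5-fold rule 2 members were higher (Rab17 and Tbc1d25), beside 8.08% of all genes, and 3 were lower (Rab3il1, Rab3b and Rab3a), beside 6.66%.

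**Figure D1:**
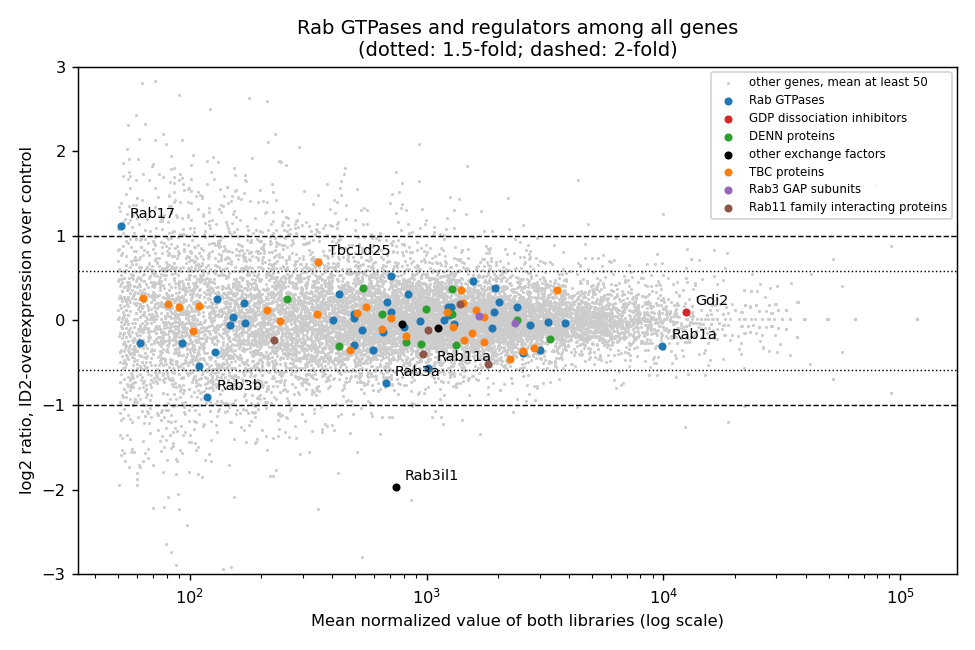
Each point is 1 gene, with the mean normalized value of both libraries on a log axis and the log2 ratio of ID2-overexpression over control on the vertical axis; grey points are other genes above the floor, and 7 genes with a log2 ratio beyond 3 in size are not drawn. The 95 members drawn lie mostly in the middle of the cloud, with Rab3il1 at −1.97 below it and Rab17 at 1.12 at the low-level edge.

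Ratios of all genes spread most at low levels, and the members were compared with genes of like level for this reason. Of 19 members with means from 50 to 250, 78.9% were less than 1.25-fold apart, against 43.0% of all genes in that range. Of 33 members with means from 250 to 1000 the share was 75.8%, against 63.2%. Of 44 members with means of at least 1000 it was 72.7%, against 79.2%, and all 44 were within 1.5-fold, beside 95.3% of the genes at that level. These shares describe 2 libraries, and genes are not replicates.

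**Figure D2:**
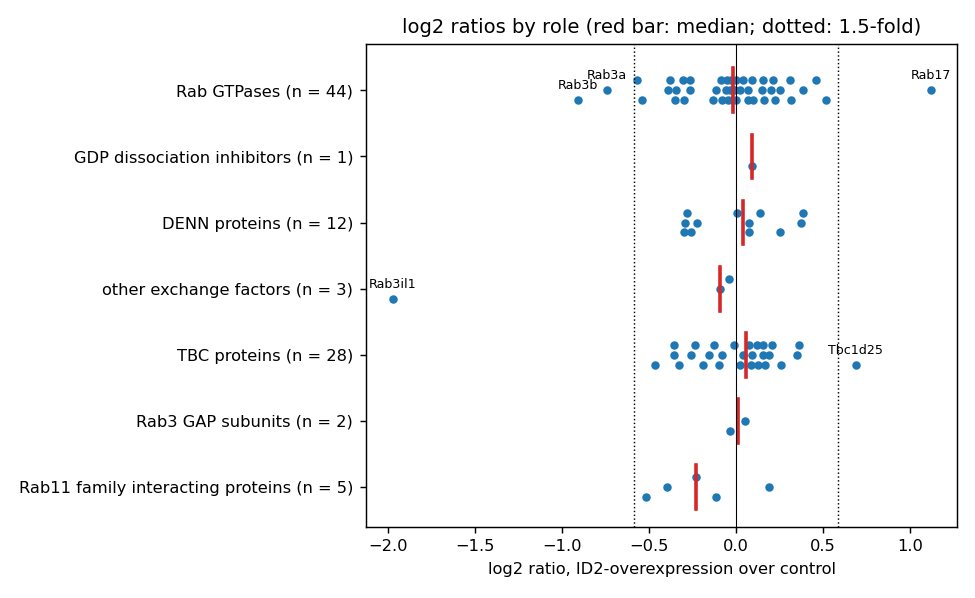
Log2 ratios of ID2-overexpression over control for 95 members, 1 point per gene, with a row for each role; red bars are medians over genes and dotted lines mark 1.5-fold. All medians but that of the Rab11 family interacting proteins, −0.23, lie within 0.1 of 0, and single genes rather than roles stand apart.

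The largest difference was in an exchange factor. Rab3il1, also called GRAB, activates Rab3 proteins and acts on Rab8 as well. It stood at 301 in the ID2-overexpression library and at 1186 in the control library, a 3.93-fold lower level (log2 ratio −1.97). In the window of 500 genes nearest in mean level, which here and below counts the gene itself, 0.2% had a ratio as low, which is Rab3il1 alone, and the 5th and 95th percentiles of the ratio there were −0.51 and 0.68. In the authors' deposited table Rab3il1 has a p of 6.03e-07 and an adjusted p of 8.68e-04, values that rest on no measured spread between replicates. It was the 1 of 96 members with an adjusted p under 0.05 there, beside 0.205% of all genes above the floor, and the 1 member with an unadjusted p under 0.05, beside 4.33%.

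Its close relative was near level. Rab3ip, or Rabin8, activates Rab8 at the base of the cilium and stood at 1078 in the ID2-overexpression library and at 1149 in the control library (log2 ratio −0.09). Summed over both genes, the values came to 1380 in the ID2-overexpression library and 2336 in the control library, a log2 ratio of −0.76. Rabgef1, which activates Rab5 on early endosomes, stood at 775 in the ID2-overexpression library and at 796 in the control library (−0.04). No 50-base word of the annotated transcripts of Rab3il1 or Rab3ip occurs in a transcript of another gene.

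The Rab3 GTPases, which prime stored vesicles for release, were lower as well. Rab3a, the most studied Rab of synaptic vesicles, stood at 502 in the ID2-overexpression library and at 842 in the control library, 1.68-fold lower (log2 ratio −0.74). Of the 500 genes nearest to it in level, 2.0% had a ratio as low. Rab3b stood at 82.4 in the ID2-overexpression library and at 155 in the control library, 1.88-fold lower (−0.91), and 7.6% of genes of its level were as low. Rab3d, found on granules of gland cells, stood at 525 in the ID2-overexpression library and at 668 in the control library (−0.35), a ratio that 14.0% of genes of its level reached. All 3 Rab3 genes with a row were thus on the lower side, where 51.5% of all genes above the floor were by any amount. Rab3b and Rab3d lay inside the 5th percentile of ratios at their level (−1 and −0.59), and Rab3a lay past it (−0.61). So small a group is a description only, and Rab3c was not analysed here. The authors' deposited table gives these 3 genes p-values of 0.0591 (Rab3a), 0.243 (Rab3b) and 0.394 (Rab3d), each with an adjusted p of 1.

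The complex that switches Rab3 proteins off was level between the libraries. Rab3gap1, its catalytic subunit, stood at 1692 in the ID2-overexpression library and at 1630 in the control library (log2 ratio 0.05). Rab3gap2, its other subunit, stood at 2346 in the ID2-overexpression library and at 2400 in the control library (−0.03). Rab3gap2 transcripts share 18.2% of their 50-base words with another gene, mostly Iars2 on the other strand, from which these strandless libraries cannot separate them.

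**Figure D3:**
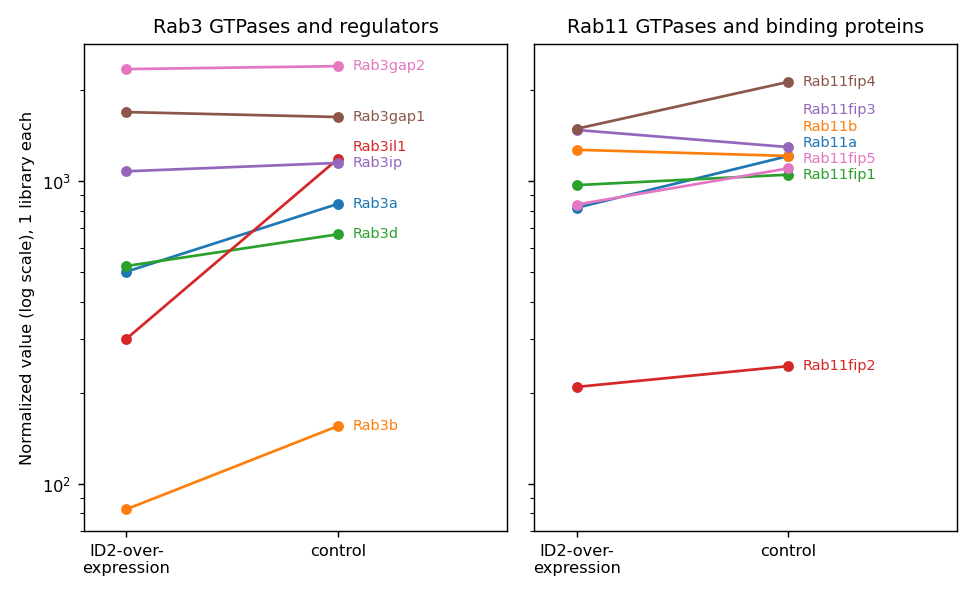
Normalized values on a log axis, with the ID2-overexpression library on the left and the control library on the right of each panel and 1 line per gene. Lines are to be read for their slope, since values are not divided by gene length. In the Rab3 panel Rab3il1 has the steepest line, lower on the left, while Rab3ip, Rab3gap1 and Rab3gap2 are nearly flat. In the Rab11 panel 5 of 7 lines are lower on the left, beside 51.5% of all genes above the floor.

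Sequence upstream of the members that were at least 1.5-fold apart is shown because ID proteins act on factors that bind E-boxes, with the letters CANNTG, which read the same on both strands. Each line gives the 250 bases before the most upstream start that RefSeq lists for the gene (build GRCm38.p6), 5′ to 3′ along the gene's strand, with E-boxes in capitals.
Rab3il1: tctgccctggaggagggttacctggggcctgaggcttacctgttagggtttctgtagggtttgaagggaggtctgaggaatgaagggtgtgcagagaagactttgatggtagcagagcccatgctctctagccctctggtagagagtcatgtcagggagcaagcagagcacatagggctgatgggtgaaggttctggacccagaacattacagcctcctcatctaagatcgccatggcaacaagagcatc
Rab3a: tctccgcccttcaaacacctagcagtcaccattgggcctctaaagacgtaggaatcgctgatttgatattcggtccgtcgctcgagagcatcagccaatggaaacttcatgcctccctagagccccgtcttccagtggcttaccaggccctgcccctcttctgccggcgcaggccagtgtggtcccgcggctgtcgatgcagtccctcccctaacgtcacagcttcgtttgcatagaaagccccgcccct
Rab3b: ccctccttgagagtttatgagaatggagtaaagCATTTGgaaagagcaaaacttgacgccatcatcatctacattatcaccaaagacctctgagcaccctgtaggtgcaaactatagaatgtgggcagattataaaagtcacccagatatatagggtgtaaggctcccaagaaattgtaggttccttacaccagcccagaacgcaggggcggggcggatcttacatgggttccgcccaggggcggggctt
Rab17: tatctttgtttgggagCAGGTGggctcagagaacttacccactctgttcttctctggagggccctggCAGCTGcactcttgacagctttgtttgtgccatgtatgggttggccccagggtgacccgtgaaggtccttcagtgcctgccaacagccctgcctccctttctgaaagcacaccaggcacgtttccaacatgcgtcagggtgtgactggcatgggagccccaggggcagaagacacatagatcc
Tbc1d25: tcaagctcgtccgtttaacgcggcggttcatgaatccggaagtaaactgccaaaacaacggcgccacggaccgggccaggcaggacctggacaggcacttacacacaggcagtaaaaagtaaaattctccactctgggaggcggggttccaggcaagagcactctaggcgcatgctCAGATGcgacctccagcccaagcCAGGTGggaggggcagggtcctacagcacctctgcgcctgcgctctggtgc

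These windows are chr19:10001419-10001668 (plus strand) for Rab3il1, chr8:70754453-70754702 (plus) for Rab3a, chr4:108878820-108879069 (plus) for Rab3b, chr1:90967668-90967917 (minus) for Rab17 and chrX:8175925-8176174 (minus) for Tbc1d25. The shown windows of Rab17 and Tbc1d25 held 2 E-boxes each, that of Rab3b held 1, and those of Rab3il1 and Rab3a held 0. So few genes, picked by their ratio, allow no comparison of E-boxes by direction. Further starts differed: of 5 starts listed for Rab3il1, those windows held 0, 0, 1, 2 and 2 E-boxes from the most upstream on, and the other start of Rab3a held 3. Which start these cells used is not known from the table. Of 79 members matched to a RefSeq promoter, 40 (50.6%) held CANNTG, beside 66.1% of 27025 promoters of all genes and 56.1% of 9397 promoters of genes above the floor. The form CAGCTG was in 13.9% of member windows, beside 12.7% of all and 11.2% of those of genes above the floor, and CACCTG (or CAGGTG on the other strand) in 13.9%, beside 17.1% and 15.7%. A match is a description of these letters and no evidence of binding.

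Rab GTPases were next set out by the membrane at which they act, a grouping made with their values known. Those of the endoplasmic reticulum and Golgi had a median log2 ratio of −0.02 (3 of 9 higher), those of early endosomes −0.03 (4 of 9 higher), and those of late endosomes −0.06 (0 of 2 higher). Rabs of recycling and delivery to the cell surface had a median of 0.10 (6 of 7 higher), and those of regulated secretion −0.36 (0 of 6 higher). By any amount, 47.2% of the whole set above the floor was higher and 51.5% lower, and groups of this size, formed with the values known, are given as a description. Of the 6 genes of regulated secretion, 3 are the Rab3 genes already described.

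**Figure D4:**
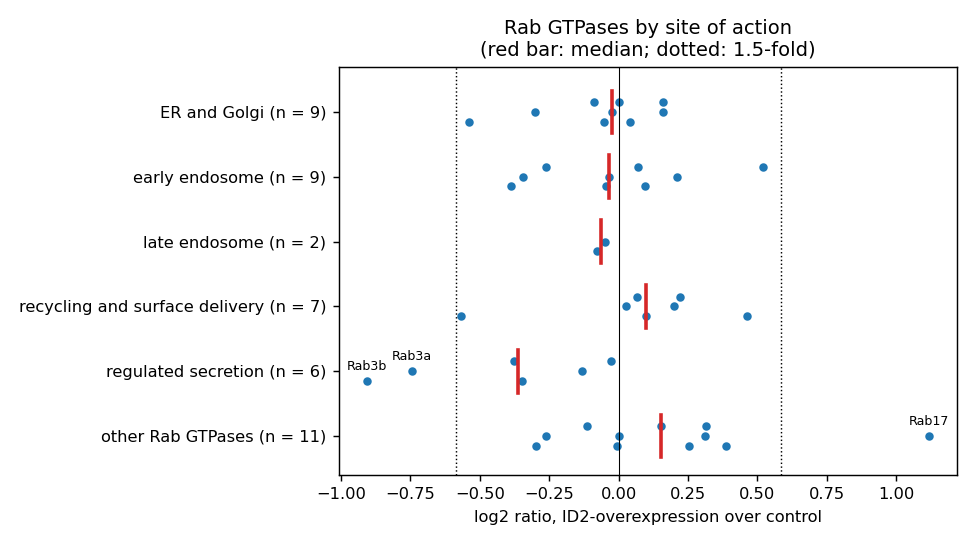
Log2 ratios of ID2-overexpression over control for the 44 Rab GTPases above the floor, 1 point per gene, by the membrane at which each is known to act; red bars are medians over genes and dotted lines mark 1.5-fold. The 6 genes of regulated secretion lie between −0.91 and −0.03, while each other row with more than 2 genes has genes on both sides of 0.

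The secretory Rabs outside the Rab3 group were less than 1.5-fold apart, with Rab37 as far on the lower side as Rab3d (log2 ratio −0.35). Rab37, known from secretory granules, stood at 112 in the ID2-overexpression library and at 145 in the control library (log2 ratio −0.38), a ratio that 26.4% of genes of its level reached. Rab27a, which takes melanosomes and lytic granules to the cell surface, stood at 624 in the ID2-overexpression library and at 685 in the control library (−0.13). Rab26 stood at 170 in the ID2-overexpression library and at 173 in the control library (−0.03).

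On the route from the endoplasmic reticulum through the Golgi, Rab1a, which directs the first transport step, stood at 8860 in the ID2-overexpression library and at 10931 in the control library (log2 ratio −0.30). Its paralog Rab1b went the other way, with 2533 in the ID2-overexpression library and 2269 in the control library (0.16). Rab2a was level at 1186 in the ID2-overexpression library and 1184 in the control library. Rab2b stood at 89.4 in the ID2-overexpression library and at 130 in the control library (−0.54), a ratio that 19.2% of genes of its level reached. Rab2b shares 57.0% of its transcript words with other genes, so its value is uncertain. Rab6a and Rab6b, of transport within and from the Golgi, had log2 ratios of −0.02 and 0.16, and Rab18, of lipid droplets and the endoplasmic reticulum, −0.09. Rab30 and Rab33b, both of the Golgi, had ratios of −0.05 and 0.04.

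The 3 Rab5 genes, whose products drive fusion of early endosomes, did not move as a block. Rab5a stood at 1288 in the ID2-overexpression library and at 1330 in the control library (log2 ratio −0.05), and Rab5c at 3787 in the ID2-overexpression library and 3876 in the control library (−0.03). Rab5b stood at 2207 in the ID2-overexpression library and at 2890 in the control library (−0.39), and 5.8% of genes of its level were as low. Rab22a, of early endosomes, stood at 834 in the ID2-overexpression library and at 581 in the control library (0.52), the second highest ratio among the Rab GTPases, and 7.8% of genes of its level were as high. Its relative Rab31 had a log2 ratio of 0.21. Rab14, which shuttles between Golgi and endosomes, stood at 2658 in the ID2-overexpression library and at 3376 in the control library (−0.34). Rab4a (0.09) and Rab21 (0.07) differed by less than 1.25-fold, as did Rab4b (−0.26), whose words are shared to 58.1% with other transcripts. Rab7, needed for fusion of late endosomes with lysosomes, stood at 2688 in the ID2-overexpression library and at 2782 in the control library (−0.05), and Rab9 had a ratio of −0.08.

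Among Rabs of recycling and surface delivery, Rab11a and Rab8a lay at opposite ends. Rab11a, the Rab of the recycling endosome, stood at 817 in the ID2-overexpression library and at 1211 in the control library, 1.48-fold lower (log2 ratio −0.57), and 2.8% of genes of its level were as low. Its paralog Rab11b stood at 1270 in the ID2-overexpression library and at 1212 in the control library (0.07). Rab8a, which delivers vesicles to the plasma membrane and the cilium, stood at 1822 in the ID2-overexpression library and at 1324 in the control library (0.46), and 5.2% of genes of its level were as high. Rab8b was level, at 496 in the ID2-overexpression library and 488 in the control library (0.03). Rab10, Rab13 and Rab35 had ratios of 0.10, 0.20 and 0.22. In the authors' deposited table the p-values of Rab11a and Rab8a are 0.107 and 0.149.

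The Rab11 family interacting proteins, which link Rab11 to motors and other partners, were lower for 4 of 5 members. By any amount, 51.5% of all genes above the floor were lower, and a group of this size is given as a description. Rab11fip4 stood at 1490 in the ID2-overexpression library and at 2129 in the control library (log2 ratio −0.51), and 1.8% of genes of its level were as low. Rab11fip5 stood at 837 in the ID2-overexpression library and at 1103 in the control library (−0.40), a ratio that 7.2% of genes of its level reached. Rab11fip2 (−0.23) and Rab11fip1 (−0.11) were lower by less than 1.25-fold. Rab11fip3, which acts in the final step of cell division, was the exception at 1477 in the ID2-overexpression library and 1297 in the control library (0.19). None of these genes was 1.5-fold apart, while 85.3% of all genes above the floor were also closer than that.

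The remaining Rab GTPases act at varied or less settled sites. Rab17, a Rab of epithelial cells, stood at 70.3 in the ID2-overexpression library and at 31.8 in the control library, 2.21-fold higher (log2 ratio 1.12). Of genes of its level 7.6% had a ratio as high, and the 95th percentile there was 1.35. The mean of Rab17, 51.1, lay just above the floor, which its control value alone would not have reached. Rab23, which restrains Hedgehog signaling in the mouse embryo, stood at 2213 in the ID2-overexpression library and at 1693 in the control library (0.39). Rab12 (0.31) and Rab29 (0.31) were also on the higher side, and Rab15 was on the lower side (−0.30). Rab28 was level at 402 in both libraries.

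Gdi2, a widely expressed GDP dissociation inhibitor, was abundant and nearly level. It stood at 12885 in the ID2-overexpression library and at 12077 in the control library (log2 ratio 0.09).

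No gene of the Dennd series was 1.5-fold apart, while 85.3% of all genes above the floor were also closer than that. Of 12 Dennd genes 6 were higher, beside 47.2% of all genes. Dennd1a, an exchange factor for Rab35, had the highest ratio, with 609 in the ID2-overexpression library and 467 in the control library (0.38). Dennd2a stood at 1440 in the ID2-overexpression library and at 1111 in the control library (0.37). Dennd1c, which also acts on Rab35, had the lowest ratio, with 382 in the ID2-overexpression library and 470 in the control library (−0.30). The Rab10 exchange factors Dennd4a, Dennd4b and Dennd4c had ratios of −0.28, −0.29 and 0.07, and Dennd5a one of −0.22. Paralogs of the same letter series thus lay on both sides of 0.

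Of 28 TBC proteins 16 were higher and 12 lower, beside 47.2% higher and 51.5% lower of all genes above the floor. Only 1 was at least 1.5-fold apart, on the higher side, beside 8.08% of all genes higher and 6.66% lower by that much. Tbc1d25, which turns off Rab33b and takes part in maturation of autophagosomes, stood at 432 in the ID2-overexpression library and at 268 in the control library, 1.61-fold higher (log2 ratio 0.69). Of genes of its level 7.2% had a ratio as high, and its p in the authors' deposited table is 0.160. Its target Rab33b stood at 155 in the ID2-overexpression library and at 150 in the control library. Tbc1d1, a regulator of glucose transporter traffic in muscle, had the lowest ratio of the role, with 1895 in the ID2-overexpression library and 2611 in the control library (−0.46), and 3.2% of genes of its level were as low. Tbc1d4, its paralog, was near the floor, at 69.3 in the ID2-overexpression library and 57.7 in the control library (0.26).

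No other TBC protein was 1.5-fold apart. Tbc1d24 (0.36) and Tbc1d13 (0.35), a GTPase-activating protein for Rab35, were at the higher end, the second with 3978 in the ID2-overexpression library and 3113 in the control library. Tbc1d15 (−0.36), which acts on Rab7, and Tbc1d10b (−0.33) were at the lower end, as was Tbc1d7 (−0.35), a subunit of the tuberous sclerosis complex. Tbc1d20, a GTPase-activating protein for Rab1, stood at 1471 in the ID2-overexpression library and at 1638 in the control library (−0.15).

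To order the members by level, values were divided by length, as the normalized value per kilobase of the longest coding transcript in GENCODE M21. No source used here gives the authors' own gene models, so this scale is approximate. Rab1a was the most abundant member per kilobase, at 3134 in the ID2-overexpression library and 3867 in the control library. Gdi2 (2994 in the ID2-overexpression library and 2807 in the control library) and Rab5c (1925 in the ID2-overexpression library and 1971 in the control library) followed. Rab7 and Rab1b were also among the highest. Rab1a made up 15.3% of the sum per kilobase over the 44 Rab GTPases in the ID2-overexpression library and 18.1% in the control library. The 5 most abundant Rab GTPases together made up 42.7% in the ID2-overexpression library and 43.5% in the control library. Rab3il1 ranked 65 of 96 by its mean per kilobase, at 58.6 in the ID2-overexpression library and 231 in the control library. With all annotated exon bases as the length, a choice made after seeing the data, Rab1a, Rab5c and Gdi2 were the highest in that order, but Rab14 moved from rank 10 to rank 40. Neighbours in this order cannot be told apart with 1 library per group.

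**Figure D5:**
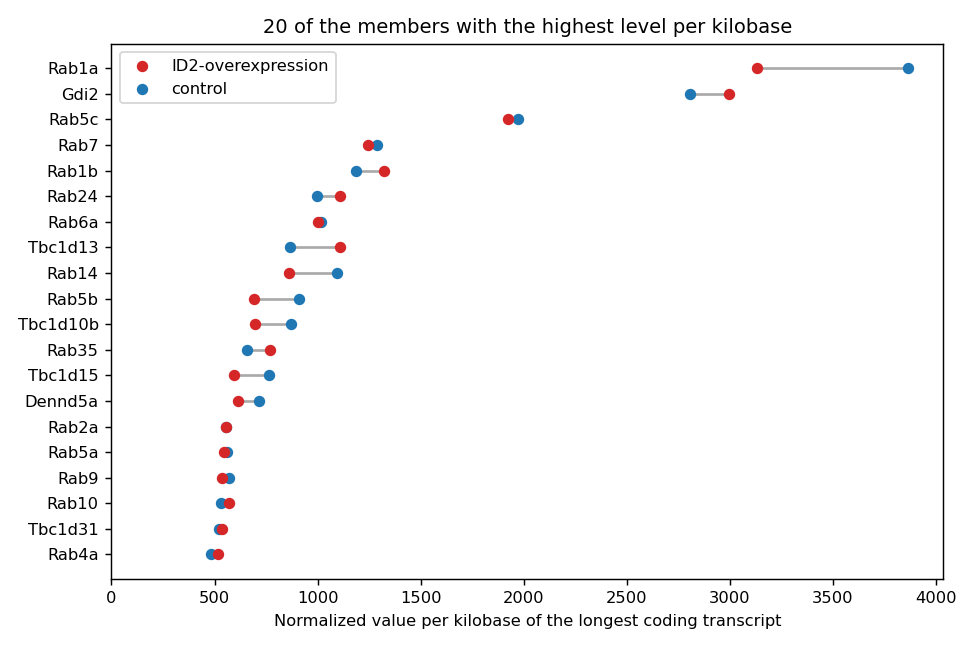
Normalized value per kilobase of the longest coding transcript for 20 of the members with the highest mean on this scale, with the ID2-overexpression library in red and the control library in blue. Rab1a and Gdi2 lead, and the values of both libraries lie close together for Rab7, Rab6a and Rab2a.

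Further parts of the Rab machinery, outside the naming rule, were read from lists of known function. All 6 genes of prenylation and escort, which attach the lipid anchor and hand new Rabs to membranes, had a row. None was 1.5-fold apart, while 85.3% of all genes above the floor were also closer than that. By any amount 5 were higher and 1 lower, where 47.2% of the whole set past the floor was higher. Their median log2 ratio was 0.17, beside −0.0023 for that whole set. Rabggtb (0.10) and Rabggta (0.09), among the higher genes, were near level, and so small a group is a description only. Of 35 further exchange factors and their subunits 34 had a row, with a median of 0.07. By any amount 18 were higher, beside 47.2% of all genes, and 2 were at least 1.5-fold higher, beside 8.08%. Of these, Rin3, an exchange factor of the Rab5 group, stood at 170 in the ID2-overexpression library and at 83.6 in the control library (1.01). This lay inside the 95th percentile of 1.18 for all genes with means from 50 to 250. Smcr8, a DENN protein that works with C9orf72, stood at 1679 in the ID2-overexpression library and at 1014 in the control library (0.73). This lay past the 95th percentile of 0.49 for all genes with means of at least 1000. Of 10 further TBC domain genes, all with a row, 5 were higher (median 0.04), beside 47.2% of all genes, and none was 1.5-fold apart.

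Effectors, the proteins that active Rabs recruit, had a row for 43 of 51 listed names. Of these 18 were higher and 25 lower by any amount, beside 47.2% higher and 51.5% lower of all genes above the floor. Their median log2 ratio was −0.04. At least 2-fold apart were 1 higher and 2 lower genes, beside 2.59% higher and 1.97% lower of all genes above the floor. Micall2, which binds Rab8 and Rab13 and organizes junctional actin, stood at 95.5 in the ID2-overexpression library and at 343 in the control library, 3.60-fold lower (−1.84). Myo5b, the motor that carries Rab11 vesicles, stood at 68.3 in the ID2-overexpression library and at 143 in the control library, 2.10-fold lower (−1.06). The 5th percentile of all genes with means from 50 to 250, the range of both genes, was −1.07. Myo5b thus lay just inside it and Micall2 past it. On the other side, the exocyst subunit Exoc8 stood at 379 in the ID2-overexpression library and at 177 in the control library (1.09). This lay past the 95th percentile of 0.71 for all genes with means from 250 to 1000. Bicd1, a dynein adaptor that binds Rab6, stood at 175 in the ID2-overexpression library and at 94.5 in the control library (0.88). This lay inside the 95th percentile of 1.18 for means from 50 to 250. The other 39 effectors were less than 1.5-fold apart, as were 85.3% of all genes above the floor.

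Members near the floor are given for completeness. Just above it stood Rab17 (mean 51.1) and Rab38 (mean 62.0), and just under it Rab39 (mean 39.5) and Rab25 (mean 36.0). All 8 matching rows under the floor were Rab20, Rab39b, Rab32, Tbc1d22bos, Rab42, Dennd2d, Rab25 and Rab39. Of these, Tbc1d22bos is by its name a transcript opposite to Tbc1d22b, and it matched the rule by its letters only. Among them Rab39b stood at 31.2 in the ID2-overexpression library and at 16.9 in the control library, and Rab20 at 14.1 in the ID2-overexpression library and 25.9 in the control library. Another 11 mouse genes with a matching RefSeq name were not analysed here.

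Reads can be shared between genes where transcripts overlap or have near-identical copies. Of the 96 members, 38 share no 50-base word of their annotated transcripts with another gene on either strand, and 13 share at least 10%. The highest shares besides those of Rab4b and Rab2b were in Rab24 (49.6%, with Prelid1 on the other strand), Tbc1d17 (32.5%) and Tbc1d10c (30.2%). Of the 5 members at least 1.5-fold apart, Rab3b shares 7.7% of its words and the other 4 share none.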

How the data were processed

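The library kit was TruSeq RNA v2 per the labels' protocols, a kit without strand information. STAR, DESeq and mouse build mm9 are named in the submitters' processing notes; no source used here gives versions, annotation or a counting tool. The authors deposited 1 normalized signal value per gene and library. The values are whole multiples (within 0.01) of a step of 1.00486 in the ID2-overexpression library and 0.99516 in the control library, and the sorted whole numbers of both libraries were identical (0 ranks differed), so depth is unknown and no counting interval was computed. The step that gave both libraries 1 distribution is not given in the sources used here. It holds overall differences between the libraries near 0, and whether the authors' p-values were computed before or after it is unknown. The authors also deposited a fold (ID2 over control), its log2, a p-value, raw and adjusted; with 1 library per group these p-values are quoted only as theirs.

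Log2 ratios used a pseudocount of 1, genes with a mean of at least 50 were kept, and calls were by fold (2, 1.5 or 1.25), without a test. Higher and lower by any amount were counted on whole steps. For each member, the share of the 500 genes nearest in mean level, itself included, with a ratio as extreme was counted, as a description. Named genes were members at least 1.5-fold apart, the extremes of each role with close paralogs, textbook members, and further machinery at least 1.5-fold apart; other members named were chosen after their values were seen. Members, lists and groupings were chosen with earlier results of these data known. The ratio formula was run on simulated counts with planted changes and no spread between cultures, which checks the arithmetic only. All 96 members had a GENCODE M21 transcript, 79 a RefSeq promoter (GRCm38.p6), used by name only, since the build differs from mm9. Python 3.11.15, pandas 2.3.3 and Matplotlib 3.10.9 were used. Values of 1 member are not reported here.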

Additional observations from a re-analysis of the deposited data

How the results depend on the processing

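Of 602 recomputed values 595 stayed within tolerance (0.1 on the log2 scale, or 1.5 times for a count), 7 moved and 0 reversed. Of these values 557 were member log2 ratios, and most of those could hardly move. A higher floor leaves the ratio of a kept gene unchanged, and pseudocounts hardly act on high values. The authors' log2 column is the same quotient without a pseudocount. The number that stayed is thus no support for the ratios. Without a floor, 5 members were at least 1.5-fold higher and 5 lower, because 8 low rows enter, with Tbc1d22bos among the lower ones. With a floor of 250, 0 members were at least 2-fold higher and 1 was at least 1.5-fold higher, because Rab17 drops out. Without Rab3il1, 0 members were at least 2-fold lower, and likewise 0 among Rab, Tbc1d and Dennd names only. With a pseudocount of 10 the log2 ratio of Rab17 was 0.94. The scaling alternatives shifted all ratios by 0.014 at most, so they could hardly move a value. No paired analysis was possible because each group has 1 library. The unknown depth limits values near the floor most.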

Other observations

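The neighbourhood of Rab3il1 on chromosome 19 was read from the gene order in RefSeq, a choice made after its value was seen. Genes without a row were skipped, so here and below a neighbour is the next gene with a row. Best1, next to it and under the floor, stood at 38.2 in the ID2-overexpression library and at 45.8 in the control library (log2 ratio −0.26), and Fth1, the ferritin heavy chain gene beyond it, at 10088 in the ID2-overexpression library and 9990 in the control library (0.01). On the other side lie the fatty acid desaturase genes: Fads3 (−0.50, also under the floor), Fads2 (877 in the ID2-overexpression library and 1110 in the control library, −0.34) and Fads1 (1793 in the ID2-overexpression library and 2219 in the control library, −0.31). None of these neighbours with a mean above the floor was 1.5-fold apart, while 85.3% of all genes above it were also closer than that. Rab3il1, 3.93-fold lower, was picked as the extreme member, and whether the difference is confined to it was not tested.

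Next to Rab3b on chromosome 4, Kti12 (0.34) and Nrd1 (−0.00) were not lower as Rab3b was. Next to Rab3a on chromosome 8, Pde4c (−0.20) and Mpv17l2 (−0.21) were lower by less than 1.25-fold, Ifi30 stood at 1969 in the ID2-overexpression library and at 3346 in the control library (−0.76), and Pik3r2 was higher (0.69).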
